A study of Mus musculus with 11 samples.

Results

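The angiopoietin and Tie receptor axis was examined through 5 genes chosen by name, the receptors Tek (the gene of Tie2) and Tie1, the phosphatase gene Ptprb, and the ligands Angpt1 and Angpt2, out of 45804 genes in each library. All 5 passed the filter on low values and were among the 15604 genes tested. The values come from RNA bound to tagged ribosomes in 11 sequencing libraries of adult C57BL/6 mice. Every mouse carried a ribosomal protein, eGFP-L10a, expressed from the VE-cadherin promoter, so that antibody to GFP was meant to pull down RNA on the ribosomes of endothelial cells. The 4 groups were brain of healthy wild type mice (3 libraries), brain of healthy Eltd1-/- mice (3 libraries), GL261 tumour grown in the brain of wild type mice (3 libraries) and GL261 tumour grown in the brain of Eltd1-/- mice (2 libraries). GL261 is a mouse glioma line, and Eltd1, now called Adgrl4, codes for a receptor of the adhesion G protein-coupled class found on endothelium. The label Eltd1-/- applies to the host mouse and not to the implanted GL261 cells, and it names no cell type to which the deletion is limited.

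Tie2 is a receptor tyrosine kinase of endothelial cells. Angpt1, made largely by mural and other perivascular cells, activates it and favours quiet, tight vessels. Angpt2, stored and secreted by endothelial cells, can block or weakly activate the same receptor and is known for its association with vessel remodelling in glioma and other tumours. Tie1 has no firmly established ligand of its own and pairs with Tie2, and Ptprb (the vascular endothelial phosphatase VE-PTP) removes phosphate from Tie2.

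Tek lies on chromosome 4 from 94739086 to 94874976 and Tie1 on chromosome 4 from 118471191 to 118489849 (GRCm38). Ptprb lies on chromosome 10 from 116275502 to 116389538, with the small nucleolar RNA gene Gm26495 inside it. Angpt1 lies on chromosome 15 from 42424667 to 42676977 and overlaps the long non-coding RNA gene Gm41313. Angpt2 lies on chromosome 8 from 18690263 to 18741562, wholly inside the span of Mcph1 (18595116 to 18808089), a gene of chromosome condensation. Promoter sequences were matched in RefSeq's table of the build GRCm38.p6 for 2 of the 5 genes, the receptors Tek and Tie1, which were both lower in tumour than in brain in the libraries described here. The 250 bases before each start site are shown 5′ to 3′ on the strand of the gene, with the letters GGAA and their reverse complement TTCC, the core bound by ETS factors of endothelial cells such as Erg, in capitals.
Tek, chr4:94739039-94739288, plus strand: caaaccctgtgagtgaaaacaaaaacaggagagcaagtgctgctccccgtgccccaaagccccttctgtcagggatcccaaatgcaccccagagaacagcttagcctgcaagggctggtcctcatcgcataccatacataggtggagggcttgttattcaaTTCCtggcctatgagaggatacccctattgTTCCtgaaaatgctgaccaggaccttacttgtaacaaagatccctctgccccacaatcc
Tie1, chr4:118489850-118490099, minus strand: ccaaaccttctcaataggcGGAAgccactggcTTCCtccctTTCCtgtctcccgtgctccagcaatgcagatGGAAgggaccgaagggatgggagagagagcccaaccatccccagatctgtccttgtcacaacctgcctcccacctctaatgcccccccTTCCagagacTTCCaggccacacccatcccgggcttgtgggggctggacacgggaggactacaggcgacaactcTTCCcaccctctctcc

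The Tek window held 2 matches to GGAA on either strand and the Tie1 window 7. GGAA occurred in 93.4% of the 32851 promoter windows of the table, at least 2 matches occurred in 76.8%, and at least 7 in 3.82%. The longer form AGGAAG, which contains GGAA, was found 1 time in the Tie1 window and not in the Tek window, against 29.5% of all windows. Also searched on both strands were the GATA-factor motif AGATAA, present in 9.99% of all windows, and the forkhead motif TAAACA, present in 12%, and neither window held them. The span given above for the Tek gene begins upstream of this start site, inside the window.

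Values are in FPKM, which scales fragments by transcript length and by the size of the library, so levels can be compared between genes within a library. The FPKM values of a library summed to between 477911 and 641665, and the number of reads behind them is unknown. Of 9968 genes with a median FPKM of at least 5, between 0.251% and 6.15% were listed at 0 in 10 libraries and 23.2% in wild type tumour replicate 2. A listed 0 may therefore be a failed estimate, and no mean is given for a group that holds one. Wild type tumour replicate 3 also stood apart, with 2083 FPKM of the neuronal gene Snap25 against 52.2 and 54.3 in the other wild type tumours. The 18 pan-endothelial genes used to check the label were each detected in at least 1 library of every group, and their summed FPKM was 1620 to 2395 in brain and 427 to 989 in tumour. Markers of other cells were also present. Summed FPKM of 10 neuronal genes was 4647 to 6415 in brain. In tumour it varied between libraries, with 96.3, 419 and 2879 in wild type and 673 and 1386 in Eltd1-/- mice. That of 14 microglia and macrophage genes was 43.3 to 70.3 in brain and 155 to 465 in tumour. Adgrl4 was 5.82 to 23.6 FPKM in the Eltd1-/- libraries and 27.4 to 192 in the wild type libraries (exact two-sided permutation p = 0.01 within tissues, the smallest possible being 0.005). The limma difference between genotypes for Adgrl4, a log2 difference of -2.78 in tumour and -2.46 in brain, did not pass (adjusted p = 0.901 and 1; for the mean of both tissues -2.62, adjusted p = 0.31).

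The plan of the tests was 2 tissues by 2 genotypes. Differences were tested with limma on log2(FPKM + 1), a scale on which the change of a gene with low values comes out too small. The Benjamini-Hochberg adjustment ran over all 15604 tested genes within each contrast, with a threshold of 0.05. Across both genotypes, Tek, Tie1 and Ptprb were lower in tumour than in brain, Angpt2 was higher, and Angpt1 did not pass. In wild type mice Tek, Tie1 and Ptprb passed as lower, 3 of the 5 genes, where 11.7% of all tested genes passed as lower. In Eltd1-/- mice Tek passed as lower, where 2.29% of all tested genes did, and Angpt2 as higher, where 4.79% did. In the mean of both genotypes 17.6% of all tested genes passed as lower and 12.6% as higher. Counted in either direction, 19.4% of all tested genes passed in wild type mice, 7.08% in Eltd1-/- mice and 30.2% in the mean of both. Because these are bulk samples, fewer endothelial cells in the pull-down and less RNA of a gene per cell cannot be told apart.

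**Figure D1:**
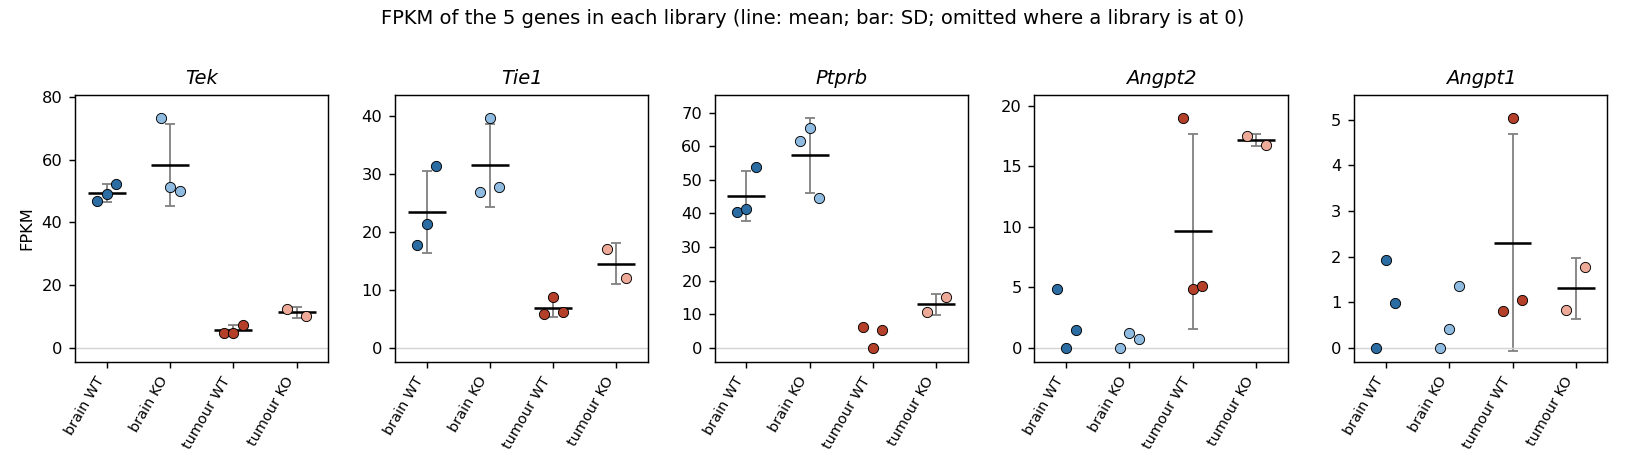
Each point is 1 library, plotted as FPKM (linear vertical axes, a separate scale for each gene) by tissue and genotype (WT, wild type; KO, Eltd1-/-), with the mean as a line and the SD as a bar, left out for a group with a library at 0. Tek ranges from 46.7 to 73.3 in brain and from 4.64 to 12.5 in tumour, and Angpt2 from 0 to 4.85 in brain and from 4.82 to 19.0 in tumour.

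Tek, the Tie2 receptor, had FPKM of 46.7, 49.1 and 52.3 in wild type brain and 73.3, 51.2 and 50.1 in Eltd1-/- brain. In tumour it had 4.64, 4.71 and 7.38 in wild type and 12.5 and 10.0 in Eltd1-/- mice. Every tumour library lay below every brain library. How many of all tested genes separated the tissues in this way was not counted, for Tek or for the genes that follow. In wild type mice the mean fell from 49.4 ± 2.81 to 5.58 ± 1.56 (SD, n = 3 each), 8.85-fold lower in tumour, a log2 difference of -2.96 (SE 0.37, limma adjusted p = 0.000609). The Eltd1-/- mean fell from 58.2 ± 13.1 (SD, n = 3) to 11.3 ± 1.72 (SD, n = 2), 5.17-fold lower, a log2 difference of -2.26 (SE 0.41, limma adjusted p = 0.00845). The wild type difference was -2.87 without tumour replicate 2, -3.15 without replicate 3 and -3.16 without both (limma adjusted p = 0.00127, 0.000348 and 0.00182). The call in Eltd1-/- mice was lost without tumour replicate 1 (adjusted p = 0.0792) or replicate 2 (adjusted p = 0.0903), which leaves 1 library whose spread is taken from the other groups.

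Tie1, the partner receptor, had FPKM of 17.8, 21.3 and 31.4 in wild type brain and 27.0, 39.7 and 27.7 in Eltd1-/- brain. In tumour it had 5.82, 8.76 and 6.14 in wild type and 17.0 and 12 in Eltd1-/- mice. All tumour libraries lay below all brain libraries, by a smaller margin than for Tek: the highest tumour value was 17.0 and the lowest brain value 17.8. The wild type mean fell from 23.5 ± 7.05 to 6.90 ± 1.61 (SD, n = 3 each), 3.40-fold lower, a log2 difference of -1.61 (SE 0.42, limma adjusted p = 0.0217). The Eltd1-/- means were 31.5 ± 7.13 (SD, n = 3) in brain and 14.5 ± 3.54 (SD, n = 2) in tumour, and the log2 difference of -1.06 (SE 0.47, 95% interval -2.09 to -0.03) did not pass (limma adjusted p = 0.189). The wild type difference was -1.77 without tumour replicate 2, -1.55 without replicate 3 and -1.81 without both (limma adjusted p = 0.0193, 0.0295 and 0.041). It no longer passed without brain replicate 3 (adjusted p = 0.0764), without tumour replicate 1 (0.0618), after upper quartile scaling (0.0645) or quantile normalization (0.0572), or when only its own groups were fitted (0.101).

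Ptprb, the phosphatase that acts on Tie2, had FPKM of 40.4, 41.3 and 53.9 in wild type brain and 61.7, 65.5 and 44.7 in Eltd1-/- brain. In tumour it had 6.22, 0 and 5.18 in wild type and 10.6 and 15.1 in Eltd1-/- mice. No tumour library reached the lowest brain value, and the listed 0 was in wild type tumour replicate 2, the library with many zeros. In wild type mice the log2 difference was -3.69 (SE 0.66, limma adjusted p = 0.00427). It was -2.78 without tumour replicate 2, -4.09 without replicate 3 and -2.67 without both (limma adjusted p = 0.00139, 0.0023 and 0.00427). The Eltd1-/- mean was 57.3 ± 11.1 (SD, n = 3) in brain and 12.9 ± 3.14 (SD, n = 2) in tumour, a log2 difference of -2.07 (SE 0.74, 95% interval -3.69 to -0.46) that did not pass (limma adjusted p = 0.112). With wild type tumour replicate 2 left out that difference passed (limma adjusted p = 0.00645), although the library enters it only through the shared estimate of the spread. The wild type call was lost when only its own groups were fitted (adjusted p = 0.0671).

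Angpt2, the ligand secreted by endothelial cells, had FPKM of 4.85, 0 and 1.45 in wild type brain and 0, 1.24 and 0.717 in Eltd1-/- brain. In tumour it had 19.0, 4.82 and 5.09 in wild type and 17.5 and 16.8 in Eltd1-/- mice. The wild type groups touched, since 1 brain library at 4.85 lay just above the lowest tumour library at 4.82, and the Eltd1-/- groups were well apart. In wild type mice the log2 difference of 1.87 (SE 0.77, 95% interval 0.18 to 3.57) did not pass (limma adjusted p = 0.11). It was 2.18 without tumour replicate 2, 2.15 without replicate 3 and 3.04 without both (limma adjusted p = 0.104, 0.097 and 0.0753), the last resting on replicate 1 alone. It passed after quantile normalization (2.28, adjusted p = 0.0471) and with weights per library (2.77, adjusted p = 0.00592). For Eltd1-/- mice the log2 difference was 3.54 (SE 0.86, limma adjusted p = 0.032), and it was 3.21 to 3.79 when any 1 of the 5 Eltd1-/- libraries was left out, with adjusted p of 0.064 to 0.223. Angpt2 passed as higher in tumour in the mean of both genotypes, with a log2 difference of 2.71 (SE 0.58, limma adjusted p = 0.00557).

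Mcph1, whose span holds Angpt2, was 0, 6.17 and 9.04 FPKM in wild type brain, 2.60, 7.71 and 2.54 in Eltd1-/- brain, 14.7, 26.5 and 20.1 in wild type tumour and 13.9 and 16.6 in Eltd1-/- tumour. Unlike Angpt2, Mcph1 was thus higher in every tumour library than in any brain library. Its difference also passed in the mean of both genotypes (log2 2.04, SE 0.61, limma adjusted p = 0.0266). The sources used here do not say how fragments in the shared span were assigned. The Angpt2 values are therefore uncertain, and the part of Mcph1 in them was not tested. The highest Mcph1 value was in wild type tumour replicate 2, which had the lowest Angpt2 value among the tumours.

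Angpt1, the activating ligand, was low in every group. Its FPKM was 0, 1.92 and 0.982 in wild type brain and 0, 0.404 and 1.35 in Eltd1-/- brain, and in tumour 0.808, 5.04 and 1.05 in wild type and 0.817 and 1.77 in Eltd1-/- mice. The groups overlapped throughout, and the highest value was in wild type tumour replicate 2. The log2 difference between tumour and brain was 0.65 (SE 0.64, 95% interval -0.76 to 2.06, limma adjusted p = 0.511) in wild type and 0.59 (SE 0.72, 95% interval -0.98 to 2.17, limma adjusted p = 0.664) in Eltd1-/- mice. In wild type mice it was 0.10 without tumour replicate 2, 0.88 without replicate 3 and 0.01 without both (limma adjusted p = 0.933, 0.419 and 1). Angpt1 is known as a product of mural cells, and the summed FPKM of 12 mural genes was 21.0 to 37.7 in brain, 29.0 to 66.6 in wild type tumour and 79.7 to 82.2 in Eltd1-/- tumour, with Kcnj8 and Anpep at 0 in all Eltd1-/- brain libraries. Most of the rise of this sum was in 1 gene, Cspg4. It was 3.02 to 5.58 FPKM in brain, 9.79 to 32.3 in wild type tumour and 44.9 to 56.9 in Eltd1-/- tumour. In wild type mice its mean was 4.19 in brain and 23.2 in tumour, against 31.2 and 43.9 for the sum. The other mural genes together thus did not rise there, in a mean that includes replicate 2 with its many zeros. In Eltd1-/- mice the means were 4.65 and 50.9 for Cspg4, against 31.8 and 81.0 for the sum. Of 10 mural genes tested, 2 passed as higher in the mean of both genotypes, where 12.6% of all tested genes did. The part of mural RNA in the Angpt1 values was not tested.

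In the mean of both genotypes, the receptors and the phosphatase passed as lower in tumour, with log2 differences of -2.61 for Tek (SE 0.28, limma adjusted p = 7.92e-05), -1.34 for Tie1 (SE 0.32, limma adjusted p = 0.00879) and -2.88 for Ptprb (SE 0.50, limma adjusted p = 0.00174). Angpt1 had 0.62 (SE 0.48, limma adjusted p = 0.354). Leaving out any 1 of the 11 libraries kept the calls of Tek, Tie1, Ptprb and Angpt2 in this mean, with adjusted p of at most 0.00111, 0.0476, 0.0132 and 0.0299. The neuronal genes moved with tissue, and with their mean log2(FPKM + 1) as a covariate none of these 4 calls passed: the log2 differences were then -2.20 for Tek (adjusted p = 0.123), -1.62 for Tie1 (0.384), -2.00 for Ptprb (0.577) and 1.93 for Angpt2 (0.709). Only 71 of all tested genes passed in that fit, against 4713 without the covariate.

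**Figure D2:**
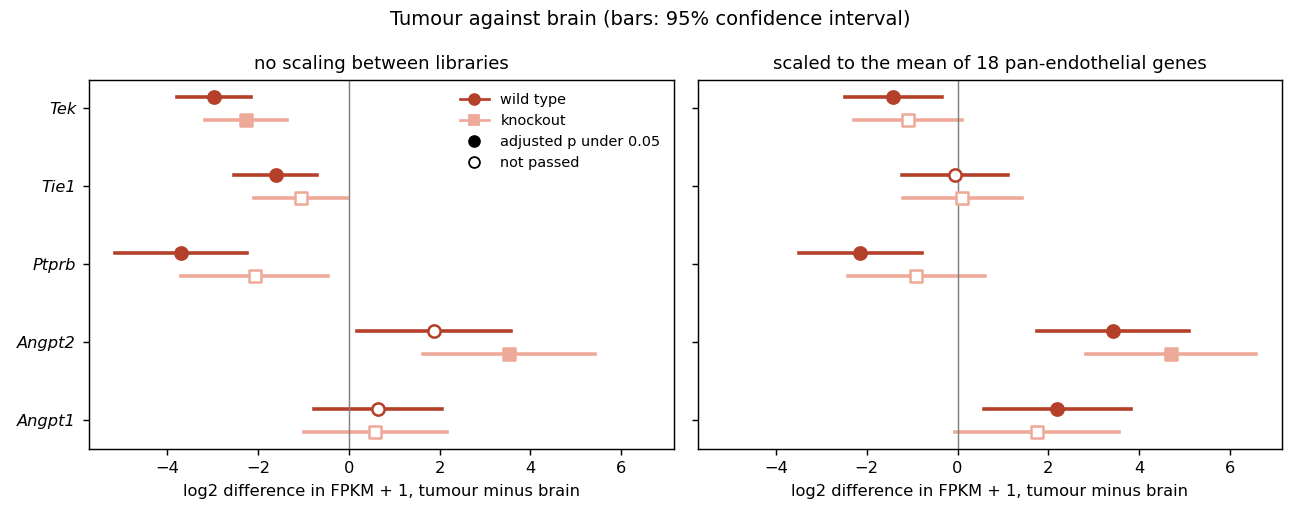
Log2 difference in FPKM + 1 between tumour and brain (horizontal axis) for each gene, in wild type (circles) and Eltd1-/- mice (squares, knockout), with 95% confidence intervals; filled symbols passed at an adjusted p of 0.05. Without scaling (left) Tek is -2.96 and -2.26 and Tie1 -1.61 and -1.06; scaled to 18 pan-endothelial genes (right) Tek is -1.41 and -1.10 and Tie1 -0.06 and 0.10.

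Because the pan-endothelial genes were themselves lower in tumour, each gene was also set against them. Of the 18 pan-endothelial genes, 5 passed as lower in wild type, 1 in Eltd1-/- mice and 10 in the mean of both genotypes, where 11.7%, 2.29% and 17.6% of all tested genes did (limma). None passed as higher. Their median log2 differences were -1.48, -1.04 and -1.25, against -0.26, -0.18 and -0.25 over all tested genes. Subtracting the mean log2(FPKM + 1) of these 18 genes from each library raised the median gene to 1.28 in wild type, 0.98 in Eltd1-/- mice and 1.10 in the mean of both, so that 96.3%, 98.8% and 95% of the calls were then higher, against 39.7%, 67.7% and 41.6% without it. The split was 51.2%, 83.9% and 51% after upper quartile scaling and 52.2%, 63.3% and 50.1% after quantile normalization. Differences relative to the median gene do not depend on this subtraction.

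Tek remained below the pan-endothelial mean change in wild type mice, by a log2 difference of -1.41 (SE 0.50, limma adjusted p = 0.0386), and in the mean of both genotypes, by -1.25 (SE 0.37, limma adjusted p = 0.0142). Ptprb did so by -2.14 (SE 0.63, limma adjusted p = 0.0174) and -1.53 (SE 0.47, limma adjusted p = 0.0175). Ptprb was listed at 0 in tumour replicate 2, and without that library, a setting chosen after seeing the data, it had -1.39 in wild type (SE 0.45, limma adjusted p = 0.0358) and -1.15 in the mean (SE 0.32, limma adjusted p = 0.0119). The wild type call of Tek on this scale was lost without tumour replicate 1 (-1.03, limma adjusted p = 0.0808). On this scale 1.37% of all tested genes passed as lower in wild type mice and 2.24% in the mean of both genotypes. Neither passed in Eltd1-/- mice, with -1.10 for Tek (adjusted p = 0.195) and -0.91 for Ptprb (adjusted p = 0.405), where 0.218% of all tested genes passed as lower. Tie1 did not pass on this scale, with -0.06 in wild type (95% interval -1.23 to 1.11, limma adjusted p = 0.936) and 0.10 in Eltd1-/- mice (95% interval -1.21 to 1.41, limma adjusted p = 0.933). The pan-endothelial genes differed among themselves. In wild type mice Ramp2 went from 195, 107 and 111 FPKM in brain to 33.6, 0 and 25.8 in tumour, and Eng from 75.5, 90.2 and 67.2 to 32.5, 2.66 and 11.7. Erg overlapped, with 14.7, 43.0 and 32.1 in brain and 17.5, 28.6 and 23.4 in tumour. How many of the 18 fell as far as Tek or Ptprb was not counted.

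Library by library, the log2 difference between Tek and the pan-endothelial mean was -0.25 to 0.00 in the 6 brain libraries and -2.22 to -0.85 in the 5 tumour libraries, so the tissues did not overlap. Ptprb lay at -0.25 to 0.10 in brain and -3.83 to -0.72 in tumour. Tie1 lay at -1.40 to -0.61 in brain and -1.94 to -0.55 in tumour, which overlapped. Angpt2 lay at -6.21 to -3.04 in brain and -1.32 to -0.40 in tumour. Relative to the median gene, the difference between tumour and brain in wild type and Eltd1-/- mice was -2.70 and -2.08 for Tek, -1.35 and -0.89 for Tie1, -3.43 and -1.89 for Ptprb, 2.14 and 3.71 for Angpt2, and 0.92 and 0.77 for Angpt1. Angpt2 and Angpt1 passed as higher in wild type mice on the pan-endothelial scale (3.42, adjusted p = 0.0047, and 2.20, adjusted p = 0.0348), where 36.0% of all tested genes did. The wild type call of Angpt1 was lost without tumour replicate 2 (1.49, limma adjusted p = 0.132) or replicate 3 (2.31, adjusted p = 0.054), and its call in the mean without both (1.38, adjusted p = 0.0784). In Eltd1-/- mice Angpt2 passed (4.70, adjusted p = 0.00257) and Angpt1 did not (1.75, adjusted p = 0.172), where 17.5% of all tested genes passed as higher, and in the mean of both genotypes both passed (4.06, adjusted p = 0.000112, and 1.98, adjusted p = 0.0116), where 43.0% did.

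The proportions of the 5 transcripts differed between the tissues. Tek and Ptprb were the most abundant in brain and overlapped each other, followed by Tie1, whose range lay below both and above the ligands in each genotype. The ligands overlapped. In wild type tumour the ranges of neighbouring genes all overlapped, and in Eltd1-/- tumour Angpt2, Tie1, Ptprb and Tek each overlapped the next in the order of their levels, while Angpt1 lay below them. The summed FPKM of the 5 genes was 110 to 162 in brain, 23.3 to 36.5 in wild type tumour and 55.7 to 58.5 in Eltd1-/- tumour. Tek made up 32.4% to 45.2% of that sum in brain and 12.7% to 29.7% in tumour, and Ptprb 35.9% to 41.4% and 0% to 27.1%. Angpt2 made up 0% to 4.42% in brain and 20.5% to 52.0% in tumour. The share of Tie1 overlapped, with 16.2% to 25.1% in brain and 16.0% to 37.5% in tumour.

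**Figure D3:**
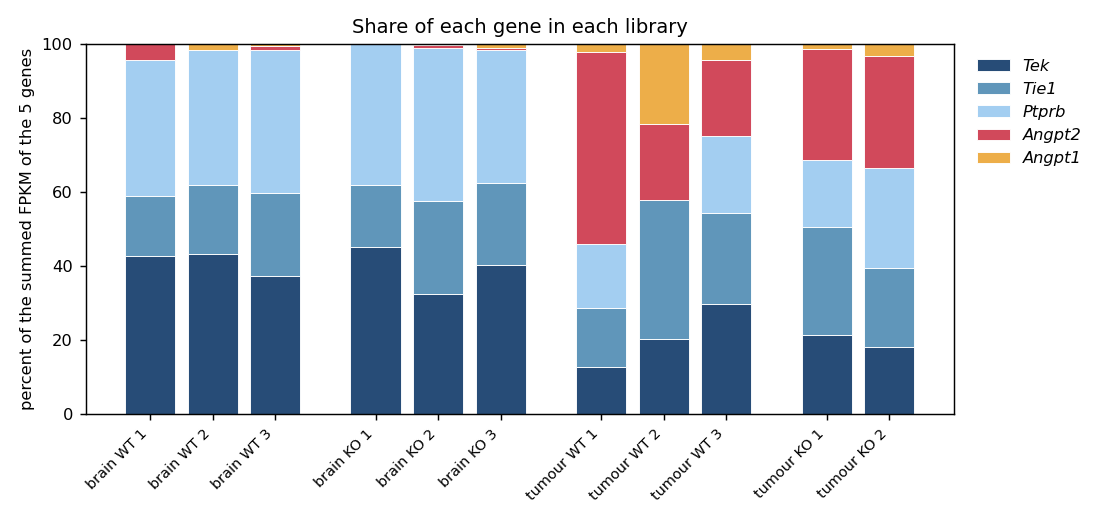
Percent of the summed FPKM of the 5 genes taken by each gene (vertical axis) in each of the 11 libraries, in brain and tumour of wild type (WT) and Eltd1-/- (KO) mice. The Angpt2 segment is at most 4.42% in brain and 20.5% to 52.0% in tumour, and Ptprb is listed at 0 in wild type tumour replicate 2.

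The ratio of Tie1 to Tek FPKM was 0.369 to 0.776 in brain (mean 0.519 ± 0.157, SD, n = 6) and 0.831 to 1.86 in tumour (mean 1.30 ± 0.371, SD, n = 5), with no overlap. Tie1 thus went from the less abundant receptor in every brain library to about level with Tek or above it in tumour. The ratio of Angpt2 to Tek was 0 to 0.104 in brain and 0.690 to 4.08 in tumour, also without overlap. The ratio of Ptprb to Tek overlapped, with 0.842 to 1.28 in brain and 0 to 1.50 in tumour. The log2 difference between Angpt2 and Angpt1, on FPKM + 1, was -1.54 to 2.55 in brain and -0.05 to 3.46 in tumour, and it was below 0 in tumour only in wild type replicate 2. These ratios are descriptions and were not tested.

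None of the 5 genes passed between genotypes in brain, in tumour or in the mean of both tissues. In tumour 0.0192% of all tested genes passed, which are the 3 genes Cox4i1, Rps15a-ps4 and Ifi44l, and 485 genes had an unadjusted limma p under 0.05. In brain 0.00641% passed, the single gene Gm15738, with 679 genes at an unadjusted limma p under 0.05. These 4 genes were named after their values were seen. The 3 genes called in tumour were each listed at 0 in every wild type tumour library, and a listed 0 may be a failed estimate. Cox4i1 had means of 244 FPKM in wild type brain, 213 in Eltd1-/- brain and 83.1 in Eltd1-/- tumour. Rps15a-ps4 was above 0 only in Eltd1-/- tumour and Gm15738 only in Eltd1-/- brain. These 2 genes thus met the filter only through the group in which they were called higher. The tumour values of Tek, Tie1 and Ptprb did not overlap between genotypes, being higher in both Eltd1-/- libraries than in any wild type library. This rests on 2 libraries against 3, and how many of all tested genes separated in this way was not counted. The log2 difference between Eltd1-/- and wild type tumour was 0.91 for Tek (SE 0.41, 95% interval 0.01 to 1.82), 0.97 for Tie1 (SE 0.47, 95% interval -0.06 to 2.00) and 1.95 for Ptprb (SE 0.74, 95% interval 0.33 to 3.56). Their unadjusted limma p-values were 0.0486, 0.0621 and 0.0223, and the adjusted p was 1 for each. The Ptprb difference was 1.04 without wild type tumour replicate 2, 2.35 without replicate 3 and 0.92 without both, against 0.83, 1.10 and 1.11 for Tek and 1.13, 0.91 and 1.17 for Tie1.

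The pan-endothelial mean log2(FPKM + 1) was also higher in Eltd1-/- tumour, 4.73 to 4.85 against 3.83 to 4.71 in wild type tumour. The summed FPKM of the same 18 genes overlapped, with 911 and 755 in Eltd1-/- tumour and 739, 989 and 427 in wild type tumour. Wild type tumour replicate 2 had both the lowest mean of the logs and the highest sum, and it listed Ramp2, Mmrn2, Icam2 and Tal1 at 0. On the pan-endothelial scale the 3 differences were 0.28 for Tek (95% interval -0.91 to 1.47), 0.34 for Tie1 (95% interval -0.97 to 1.65) and 1.31 for Ptprb (95% interval -0.20 to 2.82). Microglia and macrophage genes summed to 452 to 465 FPKM in Eltd1-/- tumour and 155 to 360 in wild type tumour, and mural genes to 79.7 to 82.2 against 29.0 to 66.6. Much of the mural difference was in Cspg4, at 44.9 to 56.9 against 9.79 to 32.3. None of the 14 microglia and macrophage genes or the 10 tested mural genes passed between genotypes in tumour. Whether RNA of these cells took part in the differences was not tested. The ligands overlapped between genotypes in tumour, with log2 differences of 1.03 for Angpt2 (95% interval -0.86 to 2.92) and -0.33 for Angpt1 (95% interval -1.90 to 1.25).

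In brain all 5 genes overlapped between genotypes. The log2 differences were 0.21 for Tek (95% interval -0.60 to 1.02), 0.42 for Tie1 (-0.50 to 1.35), 0.33 for Ptprb (-1.12 to 1.77), -0.63 for Angpt2 (-2.33 to 1.06) and -0.27 for Angpt1 (-1.68 to 1.14). The intervals still allow a change of more than 1 log2 unit in each gene. The change between tumour and brain was not shown to depend on genotype for any of them. The difference of the tissue effects, Eltd1-/- minus wild type, was 0.70 for Tek (SE 0.56), 0.55 for Tie1 (SE 0.63), 1.62 for Ptprb (SE 0.99), 1.66 for Angpt2 (SE 1.16) and -0.06 for Angpt1 (SE 0.96), each with an adjusted limma p of 1. In that comparison 1 gene of all tested passed, Cox4i1, and 496 had an unadjusted limma p under 0.05. The Cox4i1 call rests on the zeros listed for it in wild type tumour.

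**Figure D4:**
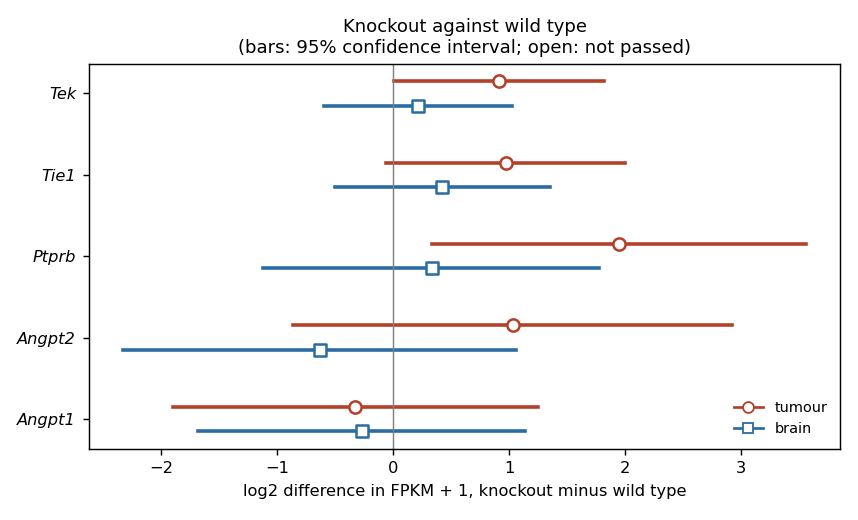
Log2 difference in FPKM + 1 between Eltd1-/- and wild type mice (horizontal axis) for each gene, in tumour (circles) and brain (squares), with 95% confidence intervals. All symbols are open because none passed at an adjusted p of 0.05; the tumour values of Tek, Tie1 and Ptprb are 0.91, 0.97 and 1.95.

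Of 45 further genes of the pathway in 6 lists, 37 were tested. In wild type mice 3 passed as higher and 4 as lower in tumour, in Eltd1-/- mice 1 and 1, and in the mean of both genotypes 8 and 7 (limma). Their median log2 differences were 0.03, -0.03 and -0.03, against -0.26, -0.18 and -0.25 over all tested genes. Of all tested genes 7.70% passed as higher and 11.7% as lower in wild type mice, 4.79% and 2.29% in Eltd1-/- mice, and 12.6% and 17.6% in the mean. None of the 37 passed between genotypes in either tissue. The ligands outside the 5 genes were not tested because of their low values: Lect2 was listed at 0 in every library, Angpt4 in every library but 1 wild type tumour at 0.342 FPKM, and Svep1 was at most 0.422 FPKM.

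Klf2, a shear-responsive transcription factor that the Tie2 pathway can induce, fell in both genotypes. It was 101, 118 and 143 FPKM in wild type brain, 113, 94.8 and 125 in Eltd1-/- brain, 15.6, 27.1 and 14.8 in wild type tumour and 20.7 and 17.5 in Eltd1-/- tumour. Brain and tumour were far apart, with log2 differences of -2.63 (SE 0.33, limma adjusted p = 0.000644) in wild type and -2.47 (SE 0.37, limma adjusted p = 0.00303) in Eltd1-/- mice. Among the other forkhead pathway genes, Foxo4 rose in wild type mice from 35.6, 5.35 and 15.5 FPKM to 60.9, 58.4 and 53.3 (log2 1.90, SE 0.60, limma adjusted p = 0.0469), a call lost when any 1 of 9 of the 11 libraries was left out, with log2 differences of 1.25 to 2.52. Sesn1, a FOXO target, passed as lower in the mean of both genotypes (log2 -1.25, limma adjusted p = 0.0276), a call lost without any 1 of 5 of the 11 libraries. Foxo1, the forkhead factor that drives Angpt2 and is restrained by Akt, was 8.39 to 15.0 FPKM in wild type brain and 8.21 to 13.0 in wild type tumour and did not pass (log2 -0.24, limma adjusted p = 0.754). In Eltd1-/- mice Foxo1 was 10.4, 14.7 and 16.1 FPKM in brain and 7.39 and 7.90 in tumour, which did not overlap. The share of all tested genes that separated so was not counted, and the Foxo1 difference did not pass (log2 -0.75, limma adjusted p = 0.405).

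Of 14 genes of the Tie2 adaptors and the PI3K, Akt and eNOS arm, none passed as higher and 1 as lower in wild type mice, 1 as higher and none as lower in Eltd1-/- mice, and 2 as higher and 2 as lower in the mean of both genotypes (limma). The shares of all tested genes that passed as higher and as lower were 7.70% and 11.7%, 4.79% and 2.29%, and 12.6% and 17.6%, in the same order. Dok2, an adaptor that binds Tie2 and is also abundant in leukocytes, was listed at 0 in all 6 brain libraries. It was 0.462, 0 and 0 FPKM in wild type tumour and 5.91 and 3.11 in Eltd1-/- tumour (limma adjusted p = 0.00961 in Eltd1-/- mice, the single call there). Dok2 met the filter, an FPKM of 1 in 2 libraries, only through those 2 Eltd1-/- tumour libraries. Its calls in Eltd1-/- mice and in the mean of both genotypes are therefore not independent of the filter and carry no weight as tests. Nos3, which makes nitric oxide in endothelium, also passed as lower in the mean of both genotypes (log2 -1.29, limma adjusted p = 0.0278), and Shc1, an adaptor, as higher (1.25, limma adjusted p = 0.0358). The call of Nos3 was lost without any 1 of 6 libraries and that of Shc1 without any 1 of 5. Neither the adaptor genes Grb2 and Ptpn11 nor any tested PI3K subunit passed in these tissue contrasts.

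Of 6 integrins and proteases linked to the axis, Itgb1 passed as higher in tumour in wild type mice (log2 1.29, limma adjusted p = 0.0438), a call lost without any 1 of 10 libraries and kept without wild type tumour replicate 3 (log2 1.79, adjusted p = 0.00182). In the mean of both genotypes Itga5, Itgav, Itgb1 and the membrane protease gene Mmp14 passed as higher, 4 of 6 where 12.6% of all tested genes did, and the median of the 6 was 1.05 against -0.25 over all tested genes. Itga5, a fibronectin receptor subunit that Angpt2 is known to engage, was 0 to 5.91 FPKM in brain and 6.93 to 13.5 in tumour (log2 2.07, limma adjusted p = 0.0212). The tissues did not overlap for Itga5, and the share of all tested genes that separated so was not counted. Mmp14 was 2.32 to 9.89 FPKM in brain and 6.89 to 31.4 in tumour (log2 2.03, limma adjusted p = 0.0119). The calls of Itga5, Itgav and Itgb1 in the mean were lost without either Eltd1-/- tumour library, with adjusted p of at most 0.0739, and that of Mmp14 without replicate 1 of them (adjusted p = 0.0613).

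Of 8 further receptor phosphatases and partners of Ptprb, 6 were tested, and none passed as higher. Ptprj and the junction gene Cdh5 passed as lower in tumour in wild type mice, with log2 differences of -2.38 (limma adjusted p = 0.0444) and -1.75 (limma adjusted p = 0.0304). Ptprj was 21.0, 17.2 and 18.8 FPKM in wild type brain and 4.12, 0 and 9.89 in wild type tumour, with the listed 0 in replicate 2. Without that library its difference was -1.42 (limma adjusted p = 0.0657), and the call was also lost without any 1 of 9 others. Cdh5, coding for VE-cadherin, a binding partner of Ptprb, was 27.6, 29.3 and 36.7 FPKM in wild type brain and 16.9, 4.28 and 8.11 in wild type tumour. Its call was lost without tumour replicate 2 (-1.32, limma adjusted p = 0.0698) or any 1 wild type brain library. Without wild type tumour replicates 2 and 3 the Cdh5 difference was -0.84 in wild type mice and -0.87 in the mean of both genotypes. Cdh5 is also 1 of the 18 pan-endothelial genes, and its promoter drives the ribosome tag. Ptpro joined them in the mean of both genotypes (log2 -1.83, limma adjusted p = 0.0297, lost without any 1 of 6 libraries), and Kdr, the VEGF receptor, did not pass there (log2 -0.94, limma adjusted p = 0.0503). Of 3 tested angiopoietin-like genes, Angptl2 rose in wild type mice from 0.111, 0 and 2.83 FPKM to 8.99, 28.0 and 5.75 (log2 2.95, limma adjusted p = 0.0201), a call lost without tumour replicate 2 (2.34, adjusted p = 0.0512) or brain replicate 1 or 2. Angptl4 and Angptl6 did not pass.

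**Figure D5:**
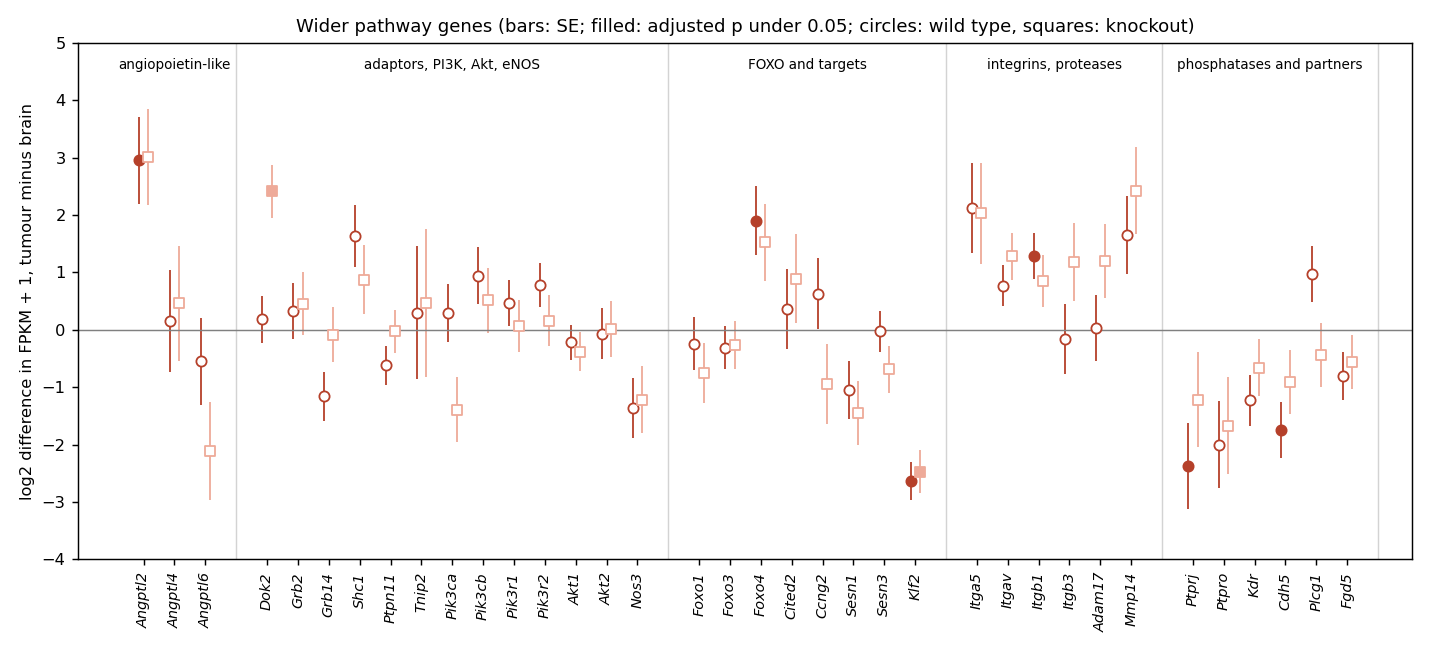
Log2 difference in FPKM + 1 between tumour and brain (vertical axis) for tested genes of the wider pathway lists, in wild type (circles) and Eltd1-/- mice (squares), with the SE as bars and filled symbols for an adjusted p under 0.05. Klf2 is filled in both genotypes at -2.63 and -2.47, and the filled circles above 0 are Angptl2, Foxo4 and Itgb1.

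Other marker lists moved with tissue beside these genes. Of 8 tip cell genes, which mark the leading cells of sprouts, 5 passed as higher in the mean of both genotypes, where 12.6% of all tested genes did, and their summed FPKM was 29.1 to 49.7 in brain, 72.7 to 147 in wild type tumour and 189 to 198 in Eltd1-/- tumour. Apln, one of them, was 1.29 to 6.30 FPKM in brain and 30.1 to 104 in tumour. Of 14 microglia and macrophage genes 11 passed as higher, of 7 glioma and progenitor genes 6, and of 6 proliferation genes 6. Of 10 neuronal genes 9 passed as lower in the mean of both genotypes, where 17.6% of all tested genes did. The part of these cells in the values of the 5 genes was not tested.

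The genes most like each member over the 11 libraries were found by Pearson correlation of log2(FPKM + 1) among 10334 genes with a mean FPKM of at least 5. The libraries share tissue groups and composition, so these values are descriptions. Nearest to Tek were Sgms1 (r = 0.991), Bmpr2 (0.987) and Sepw1 (0.987), and nearest to Ptprb were Sdpr (0.994), Il10rb (0.985) and Id2 (0.984). Nearest to Tie1 were Upp2 (0.968), Rab4a (0.945) and Adgrf5 (0.941). In wild type tumour Rab4a was listed at 0 in every library and Upp2 was near 0, so these values lean on zeros that may be failed estimates. For Angpt2 they were Dgka (0.972), Ankfy1 (0.967) and Mcmbp (0.964), and for Angpt1 Mysm1 (0.924), Lins (0.913) and Shkbp1 (0.900). The last 3 had their highest group mean in wild type tumour, where replicate 2 held the highest Angpt1 value. Among the members, Tek had r = 0.915 with Ptprb, 0.909 with Tie1, -0.799 with Angpt2 and -0.542 with Angpt1. The ligands had r = 0.148 with each other.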

How the data were processed

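RNA on ribosomes tagged with eGFP-L10a was sequenced in 11 mouse libraries, and per the labels' protocols ribosomal RNA was depleted, RNA with an integrity number above 7 was kept and a stranded kit was used. The deposited values are FPKM per gene, per the file headers. TopHat2 2.1.1, Cufflinks 2.2.1 and the build GRCm38 are named per the submitters' processing notes, and the sources used here state neither the annotation nor the use of strand in counting. Entries of 209 repeated symbols, 478 of 46073, were summed, which left 45804 genes.

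Limma 3.58.1 in R 4.3.3 fitted 4 group means to log2(FPKM + 1), a pseudocount of 1, with 7 residual degrees of freedom (lmFit, and eBayes with a variance trend, two-sided), for the 15604 genes that reached an FPKM of 1 in 2 or more libraries. The 7 contrasts were tumour minus brain and Eltd1-/- minus wild type, each in both strata and as their mean, and the difference of the tissue effects. The Benjamini-Hochberg adjustment was made within a contrast, with a threshold of 0.05. Alternative settings numbered 24, and leaving out wild type tumour libraries on the pan-endothelial scale was added after the data were seen. Low values were searched for whole-read steps; between 0.324% and 8.00% of them lay on the most frequent ratio in a pair of libraries, so read depth is unknown and no counting interval is given. Replicates are separate mouse samples, and their numbers pair no samples. The labels' protocols mention 3 mice per group, of which 2 libraries of Eltd1-/- tumour were analysed here.

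The members and lists were chosen with earlier results of these data known. Named genes are the 5 members, Adgrl4, pathway list genes that passed in a tissue contrast, except 1 that is counted in its list and whose values are not reported here, with 1 to 4 more per list by smallest p, and for each member the 3 tested genes most correlated with it; a few others (Mcph1, Gm26495, Gm41313, markers, Lect2, Angpt4, Svep1, Foxo1, Grb2, Ptpn11 and the PI3K genes) were named for position, as markers or as pathway members, after their values were seen.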

Additional observations from a re-analysis of the deposited data

How the results depend on the processing

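No paired analysis was possible because the replicate numbers were given in accession order and pair no samples. Across the 24 alternative settings Tek, Ptprb and Angpt2 kept their direction in every tumour against brain contrast. Angpt1 was not tested under a filter of 5 FPKM, and fits to only the groups compared gave no value for the difference of the tissue effects or the means. Read depth is unknown, so low levels such as those of Angpt1 have no counting error.

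With the neuronal list as a covariate the wild type differences were -2.45 for Tek (limma adjusted p = 0.308), -1.96 for Tie1 (0.591) and -2.59 for Ptprb (0.73). In Eltd1-/- mice they were -1.95 for Tek (0.15) and 2.96 for Angpt2 (0.359), and in the mean of both genotypes -2.20, -1.62, -2.00 and 1.93 for Tek, Tie1, Ptprb and Angpt2. Scaled to the pan-endothelial list, Tek was -1.10 in Eltd1-/- mice, Tie1 was -0.06 in wild type, 0.10 in Eltd1-/- mice and 0.02 in the mean, Angpt1 was 2.20 in wild type and 1.98 in the mean, and Angpt2 was 3.42 in wild type. Tie1 in wild type was -1.51 after upper quartile scaling, -1.39 after quantile normalization and -1.61 with only its groups fitted, where Ptprb was -3.69. Angpt2 in wild type passed at 2.28 after quantile normalization and 2.77 with library weights, and in Eltd1-/- mice a pseudocount of 0.1 gave 5.17 (adjusted p = 0.126). Ptprb in Eltd1-/- mice passed at -2.03 after quantile normalization, -2.01 with library weights, -2.07 with only its groups fitted and -2.07 without wild type tumour replicates 2 and 3. Tie1 in Eltd1-/- mice passed at -1.04 with library weights (adjusted p = 0.0475).

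Beside Tie1 on the pan-endothelial scale, given above, signs changed for the following differences, none of which had passed. The difference of the tissue effects for Angpt1 was 0.11 with a pseudocount of 0.1, 0.14 after upper quartile scaling, 0.43 with library weights, 0.13 with the neuronal covariate and 0.58 without wild type tumour replicates 2 and 3. Between genotypes in tumour, Angpt1 was 0.20 with library weights and 0.31 without those replicates, where Angpt2 was -0.13. In the mean of both tissues, Angpt1 was 0.02 without those replicates, and Angpt2 was -0.38 without them, -0.24 on the pan-endothelial scale and -0.20 with library weights. Tek in brain was -0.03 on the pan-endothelial scale. On that scale, leaving out 1 wild type tumour library gave -0.39 to 0.31 for Tie1 in wild type and -0.15 to 0.20 in the mean of both genotypes, and leaving out replicates 2 and 3 gave -0.36 in the mean.

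Leaving out 1 library at a time gave -0.41 to 0.49 for the difference of the tissue effects of Angpt1, and between genotypes -0.69 to 0.08 for Angpt1 in brain, -0.65 to 0.22 for Angpt1 in tumour, -1.27 to 0.00 for Angpt2 in brain and -0.12 to 0.51 for Angpt2 in the mean of both tissues. It gave 3.21 to 3.79 for Angpt2, -2.30 to -1.84 for Ptprb and -2.40 to -2.08 for Tek in Eltd1-/- mice, and -1.78 to -1.39 for Tie1 in wild type, tumour against brain.

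The number of genes that passed between tumour and brain in wild type was 3024, and it was 5838 on the pan-endothelial scale, 4937 with library weights, 614 with only its groups fitted, 0 with the neuronal covariate, and 1817 to 3887 without 1 library. In Eltd1-/- mice it was 1105, and it was 710 with a pseudocount of 0.1, 1822 after quantile normalization, 2757 on the pan-endothelial scale, 4126 with library weights, 2803 with only its groups fitted, 123 with the neuronal covariate, 2756 without wild type tumour replicates 2 and 3, and 147 to 2006 without 1 library. In the mean of both genotypes it was 4713, 71 with the neuronal covariate, and 2574 to 5177 without 1 library. Between genotypes in tumour it was 3, and 14 without a filter, 62 with library weights, 19 without those replicates, 0 with only its groups fitted, 1 with a filter of 5 FPKM, with quantile normalization, on the pan-endothelial scale or with the neuronal covariate, and 0 to 29 without 1 library. In brain it was 1, and 0 with a pseudocount of 0.1, with the filter of 5 FPKM, on the pan-endothelial scale, with only its groups fitted or without those replicates, and 0 to 4 without 1 library. For the mean genotype effect and the difference of the tissue effects it was 1, and 0 without a filter, without a variance trend, after quantile normalization, on the pan-endothelial scale or with the neuronal covariate, 13 and 4 with library weights, 8 and 8 without those replicates, and 0 to 17 and 0 to 13 without 1 library.

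Of the 37 pathway genes, 7 passed in wild type tumour against brain, and 3 with a pseudocount of 0.1, 4 without a filter, 2 after upper quartile scaling, 18 on the pan-endothelial scale, 12 with library weights, 1 with only its groups fitted, 0 with the neuronal covariate, 4 without wild type tumour replicates 2 and 3, and 2 to 9 without 1 library. In Eltd1-/- mice 2 passed, and 5 after quantile normalization, 9 on the pan-endothelial scale, 13 with library weights, 8 with only its groups fitted, 1 with the neuronal covariate, 7 without those replicates, and 1 to 5 without 1 library. In the mean 15 passed, 23 on the pan-endothelial scale, 1 with the neuronal covariate, and 4 to 16 without 1 library. Between genotypes in tumour 0 passed, and 1 without a filter. The cause of these changes was not tested.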
